A study of Pimephales promelas with 27 samples.

Results

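Ovary pieces of the fathead minnow, Pimephales promelas, were cultured without hormone, and those taken after 9 h were compared with those taken after 6 h. It rests on 9 of the 27 arrays of the study, 4 control arrays at 6 h and 5 at 9 h, chosen by the agent and the time that the labels give. Each array held the Cy3-labelled RNA of 1 explant sample. The other groups were controls at 12 h (4 arrays) and explants with DHT (dihydrotestosterone, an androgen) at a labelled concentration of 1e-06 M for 6 h (5 arrays), 9 h (5 arrays) and 12 h (4 arrays). No strain, allele or age of the fish is named in the sources used here, nor is the vehicle, if any, that control explants received. The labels do not say which samples came from the same fish, so p-values measure the spread between these samples, which may be technical in part.

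An ovary of this species holds oocytes at many stages side by side, each inside a follicle of granulosa and theca cells, which make estrogens and androgens and pass nutrients and signals to the oocyte. In an explant the follicles stay in their tissue but are cut off from the blood and from the pituitary hormones that drive them. Changes over hours of culture without hormone are therefore the background on which any hormone effect is read. The arrays measure bulk RNA, in which fewer cells of a type and less RNA per cell cannot be told apart. The files do not pair the probes with genes, and none of the 15208 non-control probes matched an entry of the reference gene table by name. Transcripts are therefore given by probe ID, and the labelled tissue was not tested against markers.

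Each level below is a probe's log2 signal minus the log2 75th percentile of its array. Levels compare arrays for 1 probe, and do not rank probes by abundance, since a probe's brightness also depends on the probe. The 75th percentile itself ranged from 2733 to 3989 on the 6 h arrays and from 3651 to 5709 on the 9 h arrays. On the log2 scale it was 11.62 ± 0.24 (SD, n = 4) and 12.11 ± 0.30 (SD, n = 5), higher at 9 h by 0.50 (exact two-sided permutation test, p = 0.0476, and 0.238 after adjustment over 5 array measures). On slides 1, 2 and 4, which held both times, it was higher at 9 h by 0.29, 0.44 and 0.29. The smallest p that 4 against 5 arrays can give is 0.0159. Probes well above background made up 73.9% to 87.2% of all non-control probes on the 6 h arrays and 74.3% to 89.9% on the 9 h arrays. Spike-in control probes (6 of 10 such probes were well above background on every array) lay between 0.96 and 1.38 relative to the 75th percentile at 6 h, but between -1.05 and 2.05 at 9 h. Their means did not pass the test (difference -0.80, exact permutation p = 0.286), and the wider spread at 9 h stands beside every result below as a measured fact whose part was not tested. Over the 13714 tested probes, 2 arrays of 6 h correlated at r from 0.960 to 0.966, 2 arrays of 9 h at 0.942 to 0.966, and arrays of different times at 0.948 to 0.964. By this r, arrays of different times were nearly as alike as those of the same time. It also reflects the brightness of each probe, which all arrays share, so it says little about change over time.

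The first question was which transcripts changed between 6 and 9 h of culture. With the spread of each probe estimated from all 27 arrays, 176 of the 13714 tested probes (1.28%) had a limma adjusted p under 0.05 and are called here. Of these, 65 (0.474% of the tested probes) were higher at 9 h and 111 (0.809%) were lower. An unadjusted p under 0.05 was reached by 2207 probes, 16.1% of those tested. About 686 would be expected with no change at any probe and independent samples. With the spread taken from the 9 control arrays alone, limma called 1 probe (0.00729%), which was not among the 176, and 1803 probes (13.1%) had an unadjusted p under 0.05. The measured changes are the same in both fits. The estimate of the spread differs, and so do the residual degrees of freedom behind it. These were 21 in the fit to all arrays and 7 in the control arrays alone, and their parts were not told apart.

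UF_Ppr_AF_118138 was the rising probe with the smallest p among those well above background on all 9 arrays. Its level was -3.45, -3.52, -3.42 and -3.59 on the 4 arrays of 6 h, and -1.75, -2.55, -1.92, -2.10 and -2.35 on the 5 arrays of 9 h. Every 9 h array lay above every 6 h array, and the 6 h arrays lay within a narrow band. The group means were -3.50 ± 0.08 (SD, n = 4) at 6 h and -2.13 ± 0.32 (SD, n = 5) at 9 h. That is a rise of 1.36 on the log2 scale, or 2.57-fold, with an SE of 0.18 and a limma adjusted p of 0.000463.

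UF_Ppr_AF_112667 rose further. Its 6 h levels were -2.91, -2.51, -2.64 and -2.76, and its 9 h levels were -0.67, -1.12, -0.84, -1.29 and -1.41. The groups again did not overlap, and the lowest 9 h array stood clear of the highest 6 h array. The mean was -2.71 ± 0.17 (SD, n = 4) at 6 h and -1.07 ± 0.31 (SD, n = 5) at 9 h, 3.11-fold higher. The log2 rise of 1.64 had an SE of 0.24 and a limma adjusted p of 0.00317.

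UF_Ppr_AF_100628 had the smallest p among the falling probes. It stood at 3.30, 3.31, 3.09 and 3.13 on the 6 h arrays and at 2.18, 2.45, 2.11, 2.08 and 2.04 on the 9 h arrays. The groups did not overlap, and control 9 h replicate 2 was the highest of its group. Its mean was 3.21 ± 0.11 (SD, n = 4) at 6 h and 2.17 ± 0.16 (SD, n = 5) at 9 h, a 2.05-fold fall. The log2 change of -1.04 had an SE of 0.13 and a limma adjusted p of 0.000463.

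UF_Ppr_AF_115095 was next among the falls. Its levels were 0.81, 1.00, 0.75 and 0.61 at 6 h and -0.47, -0.38, -0.68, -0.28 and -0.20 at 9 h, again with no overlap. Its mean was 0.79 ± 0.16 (SD, n = 4) at 6 h and -0.40 ± 0.18 (SD, n = 5) at 9 h. This 2.29-fold fall, -1.20 in log2, had an SE of 0.19 and a limma adjusted p of 0.00411. In the fit to the control arrays alone, the changes of all 4 probes were the same, but none passed. The limma adjusted p was then 0.173 for UF_Ppr_AF_118138, 0.0978 for UF_Ppr_AF_112667, 0.173 for UF_Ppr_AF_100628 and 0.173 for UF_Ppr_AF_115095.

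**Figure D1:**
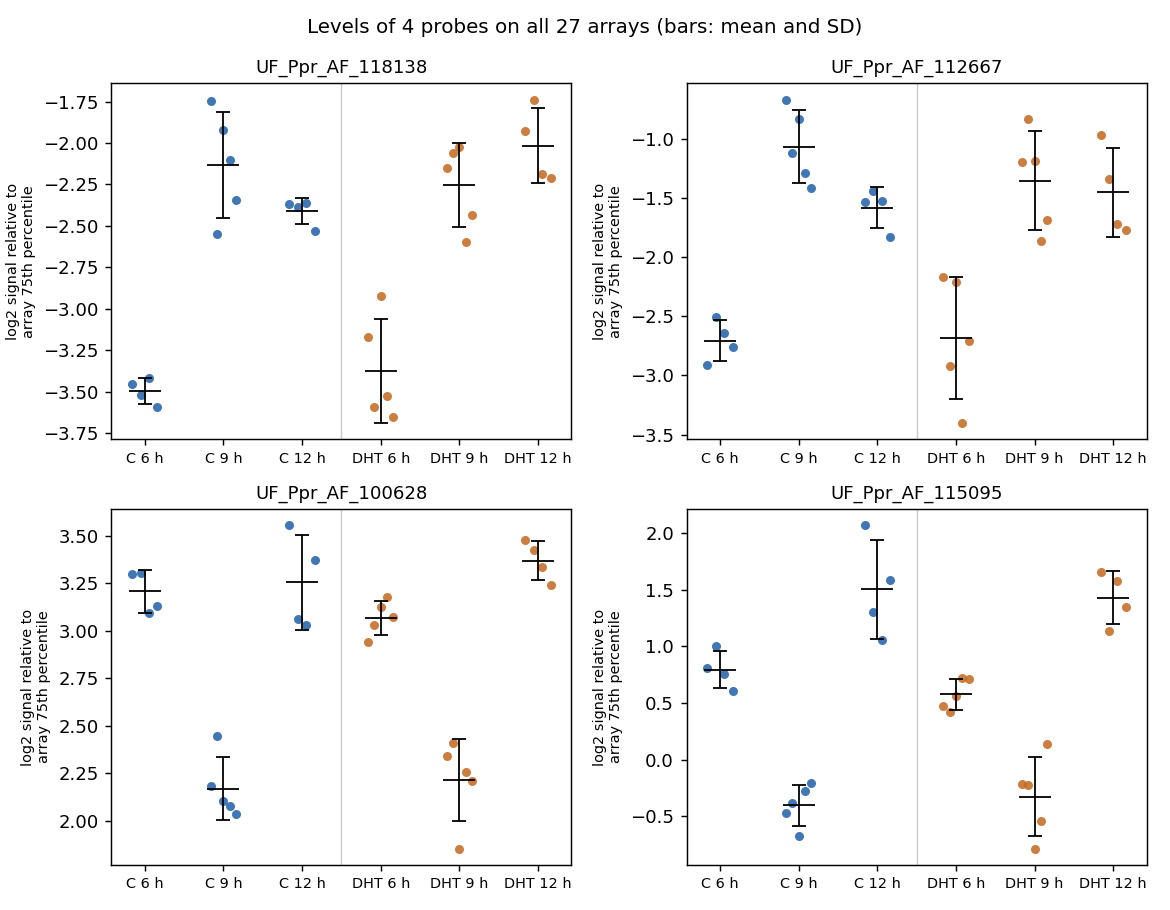
Level of each of the 4 named probes (log2 signal relative to the array's 75th percentile, vertical axes of different range) on every array of the 6 groups, with the mean and SD of each group as bars. In the controls (C, blue) the 6 h and 9 h points of each probe do not overlap, and the 2 probes in the lower row lie lower at 9 h than at both 6 and 12 h.

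The median change of the called probes was under 2-fold in each direction, while single changes were larger. Over the 65 that rose, the median log2 change was 0.98 (1.97-fold). For 3 of them no 6 h array was well above background, so the size of those rises is not known. Over the other 62 rises the median was 0.97 (1.96-fold), with a range from 0.62 to 2.92. Over the 111 that fell, it was -0.76 (1.70-fold), with a range from -3.50 to -0.44. The 6 h and 9 h groups overlapped for the 2 largest falls, UF_Ppr_AF_111538 (-3.50) and UF_Ppr_AF_116100 (-3.39). Among all tested probes the median was 0.01, and the 5th and 95th percentiles were -0.78 and 0.94. A change over 2-fold was measured for 956 (6.97%) of the tested probes. These were 30 of the 65 rises, 29 of the 111 falls and 897 probes that were not called, so most of the large changes did not pass the test. The 95% interval of the change lay within 2-fold either way for 52.0% of the tested probes. For the rest, a change of that size is not excluded by these arrays.

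The groups did not overlap for 59 of the 65 rises and 102 of the 111 falls, against 849 (6.19%) of all tested probes. The calls were chosen on these same levels, so the first 2 counts describe them and lend no support. Most called probes were well above background on all 9 control arrays, 54 of the 65 rises and 106 of the 111 falls. The same held for 10259 of all 13714 tested probes.

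Rises and falls differed in where they lay on the scale of brightness. Of the 111 falls, 77 (69.4%) had a mean level above 0, that is, above the 75th percentile of the array, where 3658 (26.7%) of the tested probes lay. Of the 65 rises, 17 (26.2%) lay there. Above a level of 2, limma called 40 falls and 5 rises among 1369 probes. Below -6 it called 3 falls and 8 rises among 2783 probes. Brighter probes were measured more tightly, with a median SE of the change of 0.17 above 2 and 0.48 below -6, so smaller changes could pass there. The median change of all tested probes also moved with level, from 0.18 below -6 to -0.12 above 2. The part of this trend in the excess of bright falls was not tested. The split between directions varied with the values used. Quantile normalization of the processed signal gave 73 rises and 93 falls, and normexp background correction with quantile normalization gave 73 and 99. The authors' deposited log2 values, whose normalization is not given, gave 94 rises and 76 falls.

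**Figure D2:**
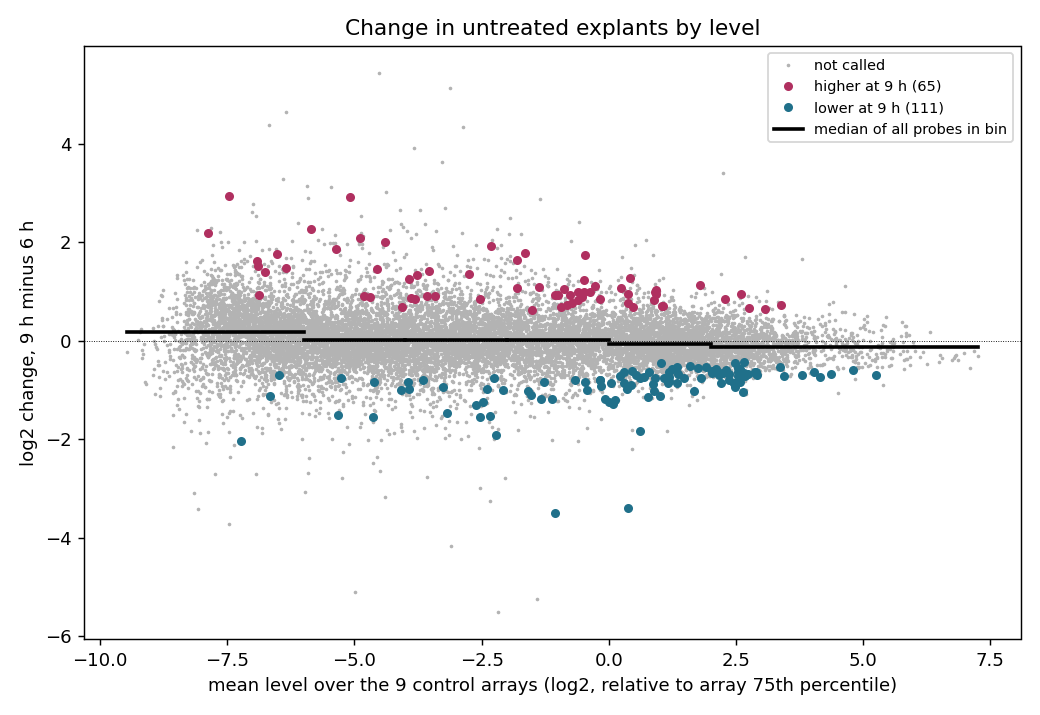
Log2 change from 6 to 9 h in controls (vertical axis) against the probe's mean level over the 9 control arrays (horizontal axis, log2 relative to the array's 75th percentile), for all 13714 tested probes. Black steps are the median change of all probes in 6 bins of level, from 0.18 at the dim end to -0.12 at the bright end, and called falls crowd at levels above 0.

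The arrays lay on slides of several arrays each, and the slide, known from the array barcodes in the sample titles, is taken as the batch. Slide 1 held 1 array of 6 h and 2 of 9 h, slide 2 held 1 of each, slide 4 held 2 of 6 h and 1 of 9 h, and slide 3 held 1 array of 9 h only. All 4 slides were scanned on 1 day. Within slides 1, 2 and 4, the changes were 1.30, 1.60 and 1.16 for UF_Ppr_AF_118138 and 2.02, 1.67 and 1.29 for UF_Ppr_AF_112667. They were -0.98, -1.20 and -1.08 for UF_Ppr_AF_100628 and -1.24, -1.68 and -0.89 for UF_Ppr_AF_115095. The median change of the 65 rises was 1.02, 1.21 and 1.05 on these slides, and that of the 111 falls was -0.76, -0.86 and -0.84. All these probes were chosen for their change on these same arrays, and the groups of most do not overlap, which fixes the sign within each slide. The values within slides are therefore a description and lend no support. With slide as a fixed block in the fit to all arrays, limma called 357 probes (2.6%), 161 of the 176 among them, 158 higher and 199 lower. With slide as a random block it called 328 (2.39%), which held all 176. With slide as a block in the fit to the control arrays alone it called 0 probes, while 1948 (14.2%) had an unadjusted p under 0.05.

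How far single arrays carried the count was asked by leaving out each in turn. The count was 35, 31, 67 and 82 without control 6 h replicate 1, 2, 3 and 4. It was 41, 206, 46, 252 and 93 without control 9 h replicate 1, 2, 3, 4 and 5. Replicates 2 and 4 of 9 h, without which the counts were highest, had the lowest spike-in levels of their group, at -1.05 and -0.50. They also had the highest 75th percentiles of their group, at 5709 and 5283. Replicate 1 had the next lowest spike-in level, at 0.13, and the count without it was 41, the lowest among the 9 h arrays. A link between either measure and the count was not tested. The 4 named probes kept their call in each fit without 1 array, with limma adjusted p from 0.000268 to 0.0255. They were chosen for their small p on these same arrays, so this lends no support. Leaving out the 12 h arrays, so that only the 19 arrays of 6 and 9 h set the spread, left 48 calls (0.35%), 46 of them among the 176.

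Arrays of the 2 arms resembled each other in pairs, which bears on how many independent samples the spread of all arrays counts. At 6 and 9 h, 7 of the 9 control arrays and a DHT array of the same time were each other's best match in the other arm, by deviations from the mean of that time over the 500 most variable probes. The r of these pairs was 0.84 to 0.93, across probes that are not independent replicates. They were chosen for this r (above 0.5), so a high value is built in. How far they stand apart from unpaired arrays is not shown here. Over the other 13214 probes r was 0.47 to 0.73 for the same pairs. The 2 arrays lay on the same slide in 5 of the 7 pairs, so slide and a shared source cannot be told apart there. With the pairs as a random block, limma called 164 probes (1.2%), 65 higher and 99 lower, and 120 of them were among the 176.

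**Figure D3:**
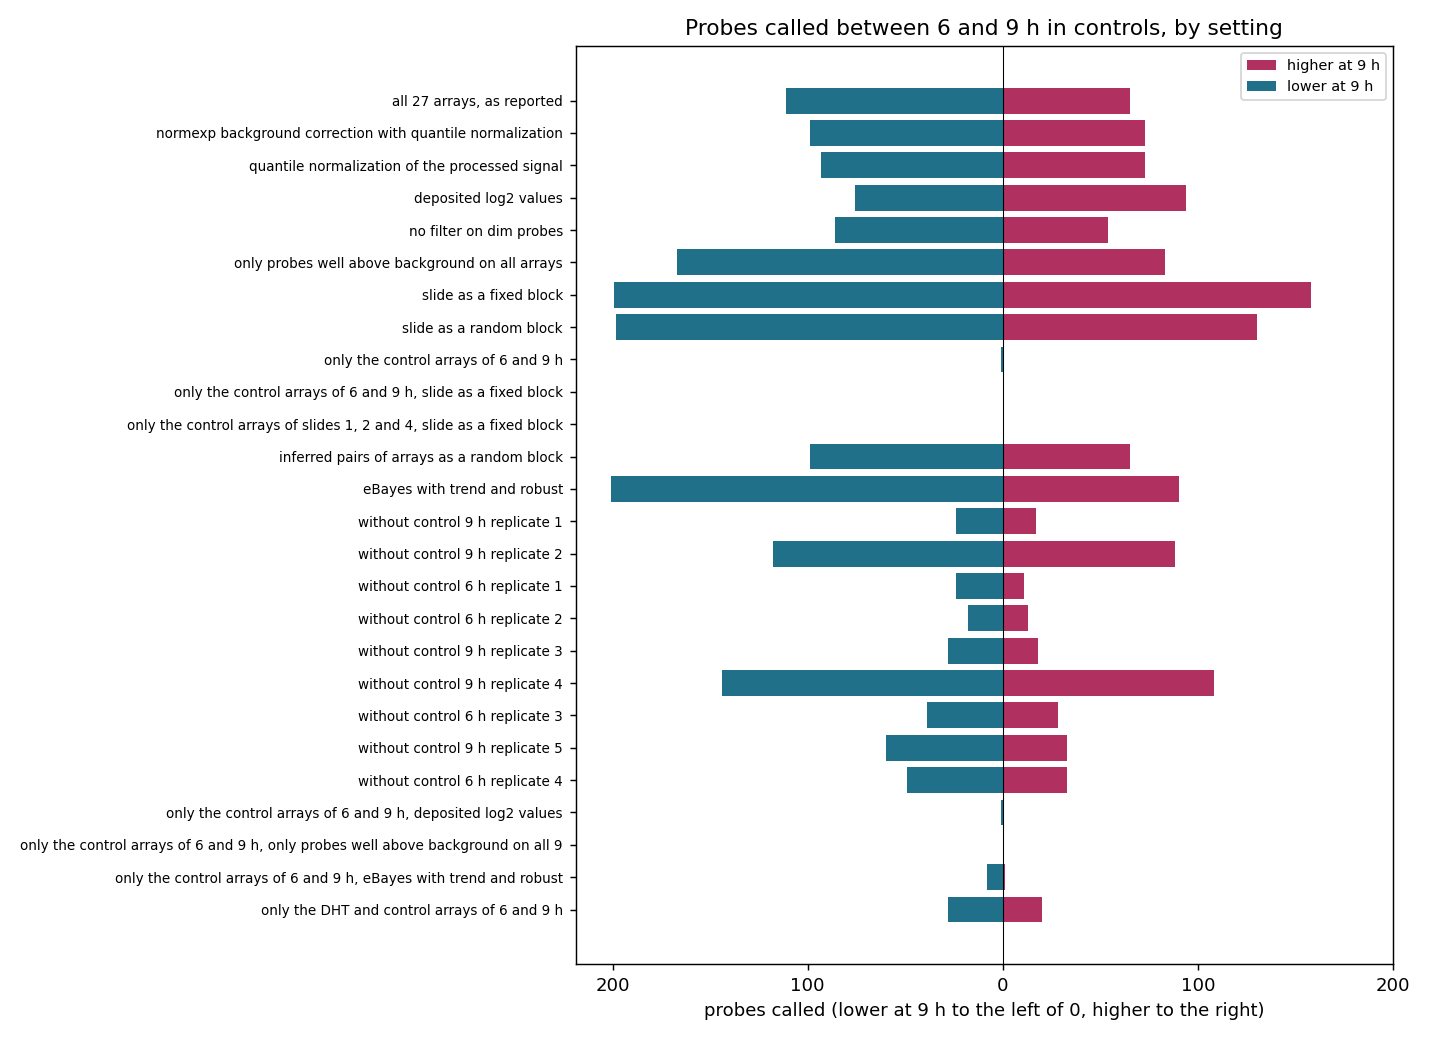
Number of probes called between 6 and 9 h in controls (limma adjusted p under 0.05) under each setting, with falls to the left of 0 and rises to the right. Fits to the control arrays of 6 and 9 h alone called between 0 and 9 probes, while fits with all arrays or all but 1 called between 31 and 357.

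The 1 probe called from the control arrays alone was UF_Ppr_AF_110121, named here after its values were seen. It stood at -5.25, -5.08, -5.24 and -6.003 at 6 h, and at -9.58, -8.40, -9.67, -8.36 and -9.61 at 9 h, where only 1 of the 5 arrays was well above background. The groups did not overlap (limma adjusted p = 0.0254 in the control arrays alone), but the 9 h levels are mostly those of background, so neither the size of the fall nor the spread at 9 h is known. The same probe ranged widely in the 12 h controls, from -9.42 to -0.37, and in the DHT arrays of 6 h, from -10.02 to 4.06. It stayed low in the DHT arrays of 9 h (-10.24 to -9.32) and of 12 h (-10.00 to -8.83). With the spread of all groups counted in, the limma adjusted p was 0.371.

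A further question was whether the change without hormone differed from that with DHT. The 2 arms have no array in common, but given the inferred pairs above, the DHT arrays cannot be taken as an independent repeat. The test of the difference between arms called 0 of 13714 probes by limma. For 69 probes (0.503%) the unadjusted p was under 0.05, where about 686 would be expected with no difference at any probe. Probes are not independent of each other, and the reason for so low a count was not tested. The 0 calls do not show that the arms were alike. It also called 0 under each other setting of the values, the filter, the blocks or the arrays in the fit, with the smallest limma adjusted p at 0.0871 for the inferred pairs as a block. For UF_Ppr_AF_118138 the rise was 1.12 in the DHT arrays (limma adjusted p = 0.00281), and the difference between arms was 0.24 with a 95% interval from -0.26 to 0.74. For UF_Ppr_AF_112667 the rise with DHT was 1.33 (limma adjusted p = 0.00843), and the interval of the difference was -0.38 to 1.00. For UF_Ppr_AF_100628 the change with DHT was -0.85 (limma adjusted p = 0.00281), with an interval of the difference from -0.56 to 0.20. For UF_Ppr_AF_115095 it was -0.90 (limma adjusted p = 0.0235), with an interval from -0.83 to 0.24. These intervals and the 69 probes come from the fit that counts paired arrays as separate samples. With the inferred pairs as a random block, 360 probes (2.63%) had an unadjusted p under 0.05, again fewer than the 686 expected with no difference. The intervals of the difference were then narrower, at 0.02 to 0.66 for UF_Ppr_AF_118138 and -0.16 to 0.72 for UF_Ppr_AF_112667. They were -0.49 to 0.03 for UF_Ppr_AF_100628 and -0.73 to 0.0045 for UF_Ppr_AF_115095. None of the 4 passed the test of the difference there (limma adjusted p of 1.00 for each).

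The mean level of the called probes on each array shows the same pattern sample by sample. Over the 65 rises, the mean lay between -2.77 and -2.51 on the 6 h control arrays and between -1.67 and -1.25 on the 9 h control arrays, from which the probes were chosen. On the DHT arrays it lay between -2.64 and -2.26 at 6 h and between -1.60 and -1.34 at 9 h. The choice did not use the change on the DHT arrays, but it did use their spread. Over the 111 falls, the mean went from a range of 0.92 to 1.04 to a range of -0.01 to 0.16 in the controls. On the DHT arrays it lay between 0.72 and 1.12 at 6 h and between -0.0017 and 0.31 at 9 h. The DHT groups did not overlap either. Of the 10 DHT arrays of 6 and 9 h, 3 had no partner among the controls by the matching above. They lay on slides that also held control arrays, and the labels do not say whether they share fish with them. On these 3 arrays the mean of the rises was -2.52 and -2.26 at 6 h and -1.44 at 9 h. That of the falls was 0.94 and 0.72 at 6 h and 0.23 at 9 h. The median change of the rises was 0.98 in controls and 0.84 with DHT, and that of the falls was -0.76 and -0.62. The probes were chosen on the controls, so the larger size there is no result. In the DHT arrays limma called 29 of the 65 and 40 of the 111, where 109 (0.795%) of all tested probes were called. These counts rest on the same estimate of spread that made the choice, and most of these DHT arrays had a control partner. They are therefore a description and lend no support.

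**Figure D4:**
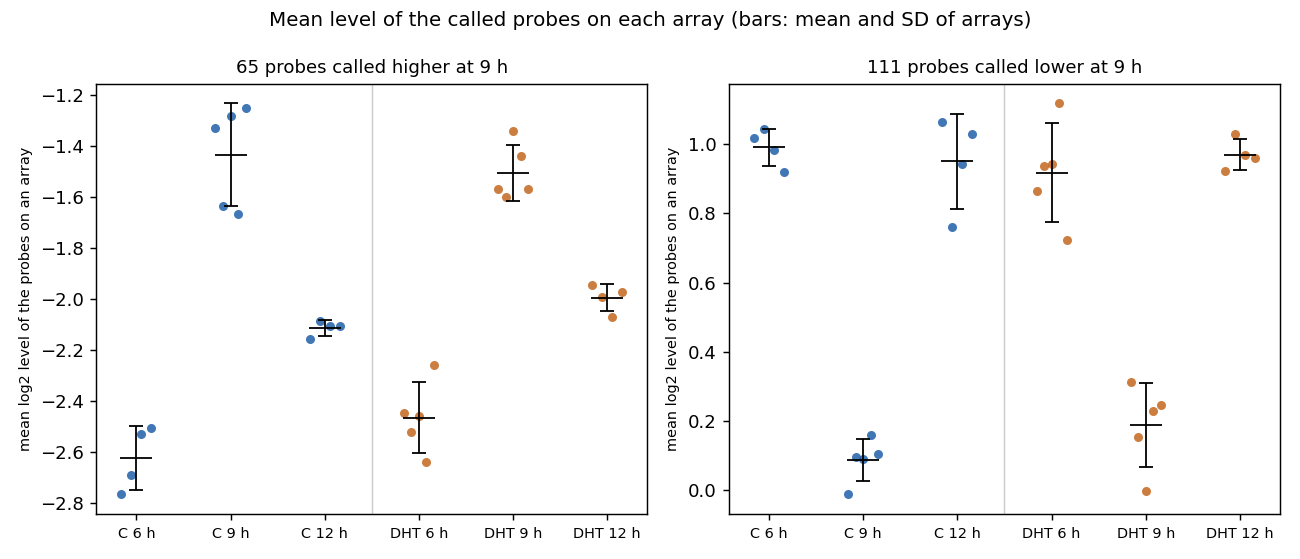
Mean log2 level (relative to the array's 75th percentile) of the 65 probes called higher and the 111 called lower at 9 h, on each of the 27 arrays by group, with the mean and SD over arrays as bars. The probes were chosen on the control (C, blue) arrays of 6 and 9 h. The mean of the falls lies between 0.76 and 1.07 on the 12 h control arrays, near its 6 h range of 0.92 to 1.04. Single falls differed from this mean. Their median change from 6 to 12 h was -0.25, and limma called 38 of the 111 between these times, against 10.0% of all tested probes.

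The levels at 12 h were set beside those at 6 and 9 h. The 12 h arrays lay on other slides, scanned on other days, so for them time cannot be told apart from batch, and comparisons with 12 h share the 6 h or 9 h arrays used above. Of all tested probes, limma called 10.0% between 6 and 12 h and 14.7% between 9 and 12 h. The 4 arrays of 12 h gave UF_Ppr_AF_118138 a mean of -2.41, which is 1.08 above 6 h (limma adjusted p = 0.000309) and -0.28 from 9 h (limma adjusted p = 0.324). UF_Ppr_AF_112667 had a mean of -1.58, which is 1.12 above 6 h (limma adjusted p = 0.00514) and -0.52 from 9 h (limma adjusted p = 0.171). Both probes were thus above their 6 h level at 12 h too. UF_Ppr_AF_100628 had a mean of 3.25, which is 1.08 above 9 h (limma adjusted p = 2.76e-06) and 0.05 from 6 h (limma adjusted p = 0.888). UF_Ppr_AF_115095 had a mean of 1.502, higher than at 9 h by 1.91 (limma adjusted p = 1.25e-07) and than at 6 h by 0.71 (limma adjusted p = 0.0239). Both falling probes thus had their lowest mean of the 3 times at 9 h. Over all the rises the median change was 0.40 from 6 to 12 h and -0.64 from 9 to 12 h. Over all the falls it was -0.25 and 0.57. Among all tested probes these medians were 0.12 and 0.11. The probes, the 4 named ones among them, were chosen for their distance between 6 and 9 h. These medians and the 12 h comparisons of the named probes are therefore a description and no test of a return.

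Some probes have contig names that share the number before a suffix such as C1 or C2, called the contig number here. They may report on the same or a related transcript, but a shared number need not mean the same contig. Of the 176 called probes, 154 had contig names, and 46 of these had at least 1 other tested probe with the same contig number. Of 66 such partners that were not called, 45 (68.2%) moved in the direction of the called probe, against 56.4% of all 2419 pairs of tested probes that share a contig number. The 2419 pairs were not chosen to hold a called probe, so the 2 shares are not alike in kind. One contig number gave 10 of the 66 partners, and 38 of the other 56 (67.9%) moved in the direction of the called probe. Of the 66 partners, 13 had an unadjusted p under 0.05, 9 in the same direction and 4 in the opposite one. That count stands against 2207 (16.1%) of all tested probes and is no support for the calls. For 1 contig number, 2 probes with different suffixes were called, with rises of 0.92 and 0.78. For UF_Ppr_AF_100628, the 2 partners changed by -0.35 (SE 0.15) and -0.51 (SE 0.31), both lower but not called (limma adjusted p 0.233 and 0.445). For UF_Ppr_AF_118138, the 2 partners differed by 0.31 (SE 0.23) and -1.69 (SE 1.31), neither called (limma adjusted p 0.553 and 0.567). The partners thus had the sign of the called probe in both cases for UF_Ppr_AF_100628 and in 1 of 2 for UF_Ppr_AF_118138.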

How the data were processed

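RNA of ovary explants was measured on 1-colour Agilent arrays. Per the file headers, the scanner files come from Feature Extraction 10.7.1.1 and hold each spot's processed signal, an intensity after background subtraction and detrending, with median intensities of spot and local background and other flags of 0 or 1. The authors' deposited table holds log2 values, normalization not given in the sources used here; its columns correlated with their own array's log2 signal at r of at least 0.998.

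Of 15744 spots, 536 were controls. Left out were 169 probes with an outlier flag and 1333 well above background on fewer than 4 arrays (overlapping sets), leaving 13714. Log2 processed signals minus each array's 75th percentile were fitted with limma 3.58.1 in R 4.3.3 (files read by data.table, version 1.17.8) as 6 group means over 27 arrays, with Benjamini-Hochberg adjustment over the tested probes. The fit was tested on simulated data with changes of 1.5-, 2-, 4- and 8-fold in 50 probes each. It called 8%, 42%, 70% and 90% of them with all arrays, and 0%, 22%, 62% and 82% with the control arrays alone. False calls numbered 6 and 11. The simulated noise was independent between arrays, unlike the likeness in pairs described above. Array measures were compared by exact permutation (scipy 1.17.1). Figures used Python 3.11.15, numpy 2.4.6, pandas 2.3.3 and matplotlib 3.10.9. The number of arrays limits the precision.

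Probes were named by rule: the 2 rises and 2 falls of smallest p among called probes well above background on all 9 control arrays. Gene lists and cell type markers were not used, since probes carry no gene names. The comparison, the rule, the members and the alternatives were chosen with earlier results of these data known. Median signals stood in for mean signals in the normexp alternative (offset 50).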

Additional observations from a re-analysis of the deposited data

Results flagged for a closer look

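The median signal of the negative control spots was 18.1 on control 9 h replicate 2, against 3.36 to 5.91 on the other 9 h control arrays, which set it apart by Dixon's test. Of 22 groups of values tested in this way, chance flags about 1 in 20, and this was the 1 found. Without this array, limma called 206 probes, 88 higher and 118 lower, and 141 of them were among the 176.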

How the results depend on the processing

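The direction of all 176 changes was the same under each alternative that tested them, and the 4 named probes passed in all 19 fits that held arrays beyond the control arrays of 6 and 9 h. All these probes were chosen on the same arrays, and the groups of most do not overlap, so this is a description and lends no support. Counts of calls moved more than these directions, and the cause was not tested. For calls, rises and falls in turn, slide as a fixed block gave 357, 158 and 199, and slide as a random block 328, 130 and 198. Variances with trend and robust settings gave 291, with 201 falls, and a filter to those well above background on every array gave 167 falls. The control arrays alone gave 1, 0 and 1, and 0, 0 and 0 with slide as a fixed block, which is the same fit as slides 1, 2 and 4 alone, since slide 3 held 1 array. Leaving out 1 array gave 31 to 252 calls, 11 to 108 rises and 18 to 144 falls. Of fits chosen after seeing the data, the control arrays alone gave 1, 0 and 1 with the deposited values, 0, 0 and 0 with the filter set on all 9 of them, and 9, 1 and 8 with trend and robust settings. The control and DHT arrays of 6 and 9 h gave 48, 20 and 28. Deposited values moved the share of rises among calls from 36.9% to 55.3%. The difference in log2 75th percentile was 0.43 on slides 1, 2 and 4 (exact permutation p = 0.0857) and 0.40 to 0.61 leaving out 1 array (exact permutation p from 0.0357 to 0.107). By replicate number, no paired analysis was possible because the labels give none, and the blocks used above were slide and the pairs inferred from the data. Dim probes were measured with the widest errors.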

Other observations

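Probe names that carry a sequence number in place of a contig made up 8 of the 111 falls (7.21%) and 13 of the 65 rises (20.0%), against 2698 (19.7%) of the tested probes. The share of variance over the 9 control arrays that lay between the times had a median of 12.6% over all tested probes, and 75.7% over the called probes, which were chosen for it. With so few arrays the share is positive even with no change between the times, so the 12.6% is no measure of change.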
